A study of Homo sapiens with 4 samples.

Results

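The myosin heavy chains described here are MYH6 and MYH7, the α and β chains of the cardiac sarcomere, MYH7B, a slow-type sarcomeric chain, and MYH9, MYH10 and MYH14, the heavy chains of nonmuscle myosin IIA, IIB and IIC. These 6 genes were taken by symbol from a table of FPKM (fragments of a transcript scaled by its length and by the mapped fragments of the library) that lists 23615 gene symbols, 15 of them myosin heavy chain genes. The values come from 4 poly-A RNA-seq libraries of unsorted day 14 cultures of RUES2 cells, an established human embryonic stem cell line, with 2 biological replicates per group. Both groups were patterned to anterior mesoderm (A100/B5) with 100 ng/ml activin A, 5 ng/ml BMP4 and 1 µM of the Wnt agonist CHIR-99021. The CPC group holds cardiomyocytes from cardiac progenitor cells, which the differentiation scheme shows receiving 1 µM of the tankyrase inhibitor XAV-939 (XAV) on day 3. The ECsXAV group holds cardiomyocytes from hemogenic endothelial cells, which were placed on day 2 in medium with 200 ng/ml VEGF, 5 ng/ml bFGF and 10 ng/ml BMP4 and were turned to the cardiac fate by 2 µM XAV from day 5 to day 7. A single cell line was used, and the names of the samples begin differently in the groups, so that whatever this prefix marks and the group cannot be told apart.

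Myosin II is a hexamer of a pair of heavy chains and the light chains bound to them. The head of each heavy chain hydrolyses ATP and pulls on actin, and its coiled-coil tail packs into filaments. In the cardiac sarcomere the α chain has the faster ATPase and the β chain the slower and more economical stroke, and in the adult human heart MYH6 is characteristic of the atria and MYH7 of the ventricles. The nonmuscle chains are found in most cells, where they drive cytokinesis, migration and the tension of stress fibers. In the developing heart nonmuscle myosin IIB also takes part in the division of cardiomyocytes. The comparison of CPC with ECsXAV cultures asks how cardiomyocytes that reached the same fate by different routes differ in their transcripts.

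A microRNA gene lies in an intron of each cardiac member on the same strand. In the GENCODE annotation on GRCh37, MIR208A is in intron 29 of MYH6, MIR208B in intron 30 of MYH7 and MIR499A in intron 22 of MYH7B. They are shown because they tie each of these hosts to a mature microRNA of one seed family. The mature sequences are from RefSeq on GRCh38.p14, written 5′ to 3′, and capitals mark the seed at bases 2 to 8.
hsa-miR-208a-3p (chr14:23388602-23388623, minus strand): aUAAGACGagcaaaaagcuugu
hsa-miR-208b-3p (chr14:23417997-23418018, minus strand): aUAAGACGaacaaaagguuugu
hsa-miR-499a-5p (chr20:34990408-34990428, plus strand): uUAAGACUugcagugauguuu
The seed of miR-208a-3p and miR-208b-3p is the same, UAAGACG, and that of miR-499a-5p, UAAGACU, shares its bases 2 to 7 with them.

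MYH6 and MYH7 are neighbours on chromosome 14. On GRCh37, MYH6 spans 23851191 to 23877482 on the minus strand with 39 exons in its canonical GENCODE transcript, and MYH7 spans 23881949 to 23904869 on the same strand with 40 exons. The other members are scattered. MYH7B lies on chromosome 20 from 33543613 to 33590240 on the plus strand, with 45 exons. MYH9 lies on chromosome 22 from 36677326 to 36784055 on the minus strand, with 41 exons. MYH10 lies on chromosome 17 from 8377525 to 8534694 on the minus strand, with 43 exons. MYH14 lies on chromosome 19 from 50691443 to 50813799 on the plus strand, with 43 exons. Of the 6 members, 4 had an entry in the RefSeq promoter table. The 250 bases upstream of the MYH6 start (GRCh38.p14, chr14:23408274-23408523, minus strand) are shown because MYH6 has the highest mean FPKM of the members and the one that rose in CPC cardiomyocytes, with a TATA box (TATAAA) and the core of the motif bound by TEAD factors (GGAATG) in capitals.
MYH6 upstream region: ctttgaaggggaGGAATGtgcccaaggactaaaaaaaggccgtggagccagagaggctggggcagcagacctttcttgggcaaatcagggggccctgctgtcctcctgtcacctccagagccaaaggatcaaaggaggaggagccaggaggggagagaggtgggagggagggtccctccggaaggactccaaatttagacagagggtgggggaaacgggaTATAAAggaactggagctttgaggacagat
TATAAA begins 30 bases and GGAATG 238 bases upstream of the start. All 35116 promoters of the table were searched on both strands of the 250 bases before the start. TATAAA was found in 10.7% of them and GGAATG in 11.9%, and these motifs do not overlap in the MYH6 promoter. GGAATG was also found once in the promoters of MYH9 and MYH10 and not in that of MYH14, and TATAAA was in none of these 3. No match to AGGTCA (in 12.1% of promoters), GATAA (in 20.4%) or the CArG box (in 1.16%) was found in the 4 promoters. These matches describe the letters of the windows only.

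MYH6 was the highest expressed heavy chain in CPC cardiomyocytes, at 2.32 times its level in ECsXAV cardiomyocytes, and MYH7 was 5.70 times higher in ECsXAV cardiomyocytes. MYH7B stood at nearly equal FPKM in both groups, MYH9 and MYH10 were lower in both CPC libraries than in both ECsXAV libraries by 1.23 and 1.16 times, and MYH14 was below 1 FPKM in all 4 libraries. In unsorted cultures, fewer cells of a type and less RNA per cell cannot be told apart. The plot of FPKM by library shows these levels on a log scale.

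**Figure D1:**
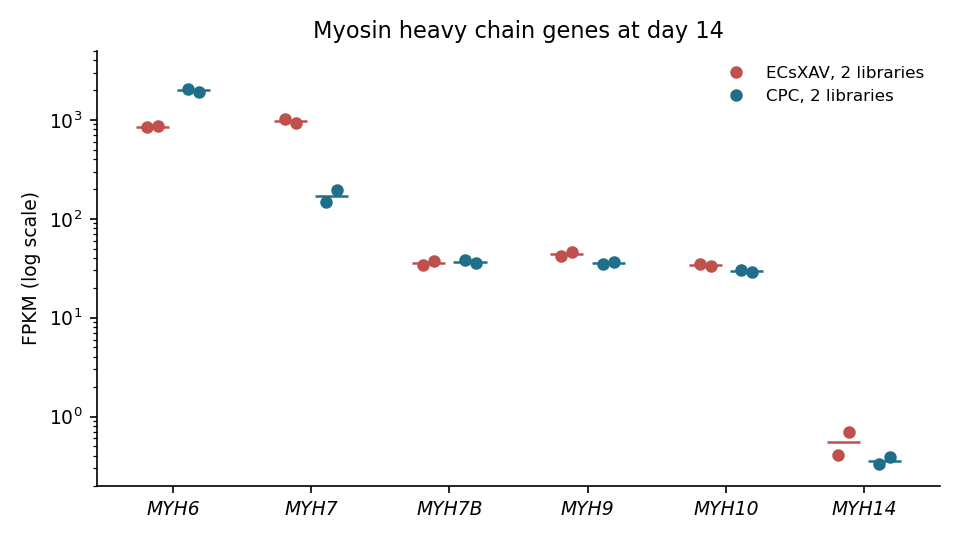
FPKM of the 6 heavy chain genes on a log axis, with a point for each of the 2 ECsXAV (red) and 2 CPC (blue) libraries and a short line at the mean of each group. MYH6 and MYH7 sit side by side in ECsXAV cardiomyocytes, with means of 856 and 971 FPKM, and apart in CPC cardiomyocytes, with means of 1985 and 170 FPKM.

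MYH6 had 855 and 857 FPKM in ECsXAV replicates 1 and 2, in which order values are given throughout, and 2070 and 1901 FPKM in CPC replicates 1 and 2. Both CPC libraries were above both ECsXAV libraries, and the ECsXAV replicates were nearly equal. The group means were 856 ± 2.0 FPKM (SD, n = 2) and 1985 ± 120 FPKM (SD, n = 2). The log2 fold change, computed throughout as CPC minus ECsXAV on log2(FPKM + 1), was 1.21 (standard error 0.15, 95% confidence interval 0.81 to 1.61, adjusted p = 0.0358 from limma).

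MYH7 reached 1011 and 931 FPKM in the ECsXAV libraries against 147 and 194 FPKM in the CPC libraries. The groups did not overlap, and the lower ECsXAV library was several times above the higher CPC library. The group means were 971 ± 57 FPKM (SD, n = 2) in ECsXAV and 170 ± 33 FPKM (SD, n = 2) in CPC cardiomyocytes. The log2 fold change was -2.52 (standard error 0.18, 95% confidence interval -2.99 to -2.05, adjusted p = 0.0115 from limma).

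Changes were tested with limma over the 12398 genes whose mean reached 1 FPKM, and the criterion was an adjusted p under 0.05 with a fold change over 2. Of the 5 members that passed the filter on low FPKM, 2 met the criterion, MYH6 higher in CPC and MYH7 higher in ECsXAV cardiomyocytes, beside 2.15% of all tested genes, 0.710% with a higher value in CPC and 1.44% in ECsXAV cardiomyocytes. The call of MYH6 rested on all 4 libraries. Without ECsXAV replicate 1, ECsXAV replicate 2, CPC replicate 1 or CPC replicate 2 its adjusted p from limma was 0.394, 0.425, 0.0987 and 0.0794. MYH7 lost its call without ECsXAV replicate 2 (adjusted p = 0.0511 from limma) and kept it without each of the other libraries. With no filter on low FPKM the tested genes rose to 18772 and neither gene met the criterion. The adjusted p from limma was then 0.160 for MYH6 and 0.0608 for MYH7. The unadjusted p from limma also rose, from 5.9e-04 to 0.013 for MYH6 and from 4.2e-05 to 3.0e-04 for MYH7. When microRNA, small nucleolar and other short RNA genes were left out (chosen after seeing the data), the adjusted p from limma was 0.0051 for MYH6 and 2.3e-04 for MYH7.

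MYH7B had 34.3 and 37.2 FPKM in the ECsXAV libraries against 37.9 and 35.4 FPKM in the CPC libraries. The 2 groups overlapped. Its means were 35.7 ± 2.1 FPKM in ECsXAV and 36.6 ± 1.7 FPKM in CPC cardiomyocytes (SD, n = 2 each). The log2 fold change was 0.035 with a 95% confidence interval from -0.25 to 0.32 (adjusted p = 0.902 from limma), so a change over 2-fold lay outside the interval in either direction. MYH7B shares 218 bases of its span with GSS and 34 bases with TRPC4AP, both on the opposite strand, and the strand handling of the FPKM is not given in the sources used here.

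MYH9, the heavy chain of nonmuscle myosin IIA, had 41.7 and 45.6 FPKM in the ECsXAV libraries against 34.5 and 36.3 FPKM in the CPC libraries. Both CPC libraries were below both ECsXAV libraries. The means of 43.7 ± 2.7 and 35.4 ± 1.3 FPKM (SD, n = 2 each) gave a log2 fold change of -0.29 (95% confidence interval -0.58 to -0.011), which missed the threshold at an adjusted p of 0.260 from limma. MYH10, the heavy chain of nonmuscle myosin IIB, had 35.0 and 33.1 FPKM in the ECsXAV libraries against 29.996 and 29.0 FPKM in the CPC libraries. Its libraries also did not overlap between groups, with both CPC values lower. The means of 34.1 ± 1.4 and 29.5 ± 0.72 FPKM (SD, n = 2 each) gave a log2 fold change of -0.20 (95% confidence interval -0.47 to 0.067, adjusted p = 0.398 from limma). Groups of 2 libraries did not overlap for 49.8% of all tested genes, 24.4% with both CPC libraries higher and 25.4% with both lower, and for 4 of the 5 tested members, 1 of them higher and 3 lower in CPC cardiomyocytes. MYH10 shares 16205 bases of its span with NDEL1 on the opposite strand.

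MYH14, the heavy chain of nonmuscle myosin IIC, had 0.40 and 0.70 FPKM in the ECsXAV libraries against 0.33 and 0.39 FPKM in the CPC libraries. The lowest ECsXAV value lay just above the higher CPC value. The gene was below the filter of 1 FPKM and was not tested in the main comparison. ECsXAV replicate 2, which held the highest MYH14 value, had the lowest relative depth of the libraries. The depth, taken from the steps of weakly expressed genes, was 50.1% of that of ECsXAV replicate 1 there, and 86.9% and 79.8% of it in the CPC libraries. Total read numbers are unknown, so no counting interval is given.

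In ECsXAV cardiomyocytes the order of FPKM was MYH7, MYH6, MYH9, MYH7B, MYH10 and MYH14. The libraries of MYH7B and MYH10 overlapped there, and all other neighbours in the order were apart. In CPC cardiomyocytes the order was MYH6, MYH7, MYH7B, MYH9, MYH10 and MYH14, and only MYH7B and MYH9 overlapped. FPKM are divided by transcript length, so these levels can be set beside each other between genes, with the limit for MYH6 and MYH7 given below.

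The other 9 myosin heavy chain genes of the table, among them the fast skeletal, embryonic and smooth muscle chains, stayed between 0 and 0.498 FPKM in every library, and MYH1 was listed at 0 in all 4. None reached a mean of 1 FPKM, and the highest mean was 0.389 FPKM. Together they summed to 0.933 and 1.22 FPKM in the ECsXAV libraries against 1.18 and 1.24 FPKM in the CPC libraries. The 6 members therefore held nearly all heavy chain FPKM of these cultures.

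Shares of the summed FPKM were computed to set the composition of the heavy chain transcripts apart from their amount. The 6 members summed to 1978 and 1905 FPKM in the ECsXAV libraries against 2320 and 2196 FPKM in the CPC libraries. The CPC sum was 1.16 times the ECsXAV sum, with no overlap between the groups (exact permutation test, two-sided p = 0.333, the smallest that 2 libraries against 2 can give). MYH7 made up 51.1% and 48.9% of the sum in the ECsXAV libraries and 6.33% and 8.84% in the CPC libraries. Its share was 50.005% ± 1.6 in ECsXAV and 7.58% ± 1.8 in CPC cardiomyocytes (SD, n = 2 each), a difference of -42.4 percentage points (exact permutation test, two-sided p = 0.333, again the smallest possible). MYH6 made up 43.2% and 45.0% in the ECsXAV libraries and 89.2% and 86.6% in the CPC libraries. The shares of the groups did not overlap for either gene. MYH6 and MYH7 make up nearly all of the sum, so a rise in the share of one goes with a fall in that of the other.

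**Figure D2:**
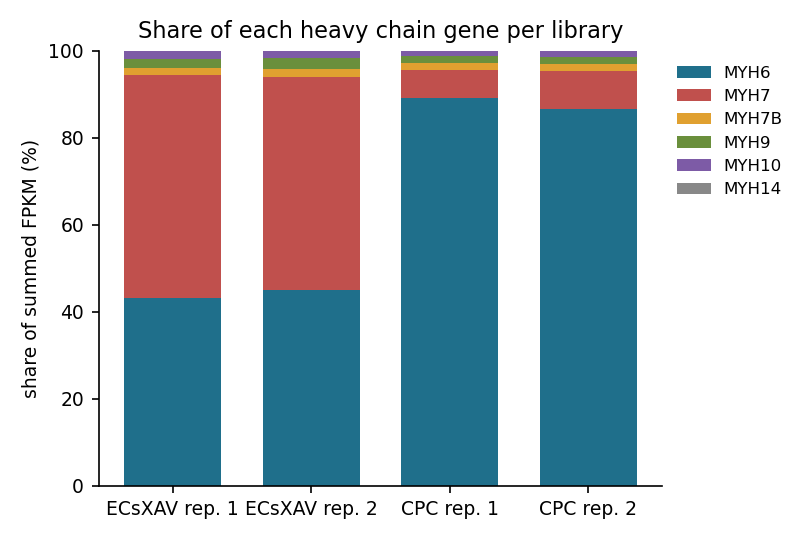
Share of each heavy chain gene in the summed FPKM of the 6 genes (percent, stacked to 100) in each of the 4 libraries. MYH6 and MYH7 fill 93.9% to 95.6% of every bar, with MYH7 at 48.9% to 51.1% in ECsXAV and 6.33% to 8.84% in CPC libraries, and MYH14 is too small to be seen.

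MYH6 and MYH7 together made up 94.4% and 93.9% of the sum in the ECsXAV libraries and 95.6% and 95.4% in the CPC libraries. The summed α and β transcripts were 1866 and 1788 FPKM in the ECsXAV pair and 2217 and 2095 FPKM in the CPC libraries, a mean 1.18 times higher in CPC cardiomyocytes. The balance between them moved far more than the sum. The ratio of MYH7 to MYH6 was 1.18 and 1.09 in the ECsXAV libraries and 0.0709 and 0.102 in the CPC libraries. MYH7 thus exceeded MYH6 in both ECsXAV libraries and stayed far below it in both CPC libraries. Between the group means MYH6 was 1129 FPKM higher in CPC cardiomyocytes and MYH7 fell by 801 FPKM.

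MYH7B held 1.73% and 1.95% of the sum in the ECsXAV libraries and 1.63% and 1.61% in the CPC libraries. Its share was lower in CPC cardiomyocytes while its FPKM was not, and the sum by which it is divided was higher there. MYH9 held 2.11% and 2.39% in the ECsXAV pair and 1.49% and 1.65% in the CPC libraries. MYH10 held 1.77% and 1.74% in the ECsXAV pair and 1.29% and 1.32% in the CPC libraries. MYH14 held 0.0143% to 0.0367% of the sum in the 4 libraries.

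Within the 3 nonmuscle chains the composition overlapped between the groups. MYH9 made up 54.1% and 57.4% of the nonmuscle sum in the ECsXAV libraries and 53.2% and 55.3% in the CPC libraries, MYH10 nearly all of the rest, and MYH14 0.512% to 0.879%. The nonmuscle sum itself was 77.2 and 79.4 FPKM in the ECsXAV libraries against 64.8 and 65.7 FPKM in the CPC libraries.

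The shares depend on how reads of similar transcripts were assigned, since the coding regions of MYH6 and MYH7 are 91.1% identical (5289 of 5803 aligned bases of the canonical GENCODE transcripts), and the longest run without a difference is 395 bases. Every other pair of members was 61.5% to 73.9% identical. Of all stretches of 50 bases in the MYH7 transcript, 14.6% occur unchanged in the MYH6 transcript, and of stretches of 100 bases 5.21% do. MYH7B, MYH9, MYH10 and MYH14 share at most 0.62% of their 50-base stretches with any other heavy chain. The handling of reads that match both genes is not given for these FPKM, and the levels of MYH6 and MYH7 are uncertain to that extent.

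**Figure D3:**
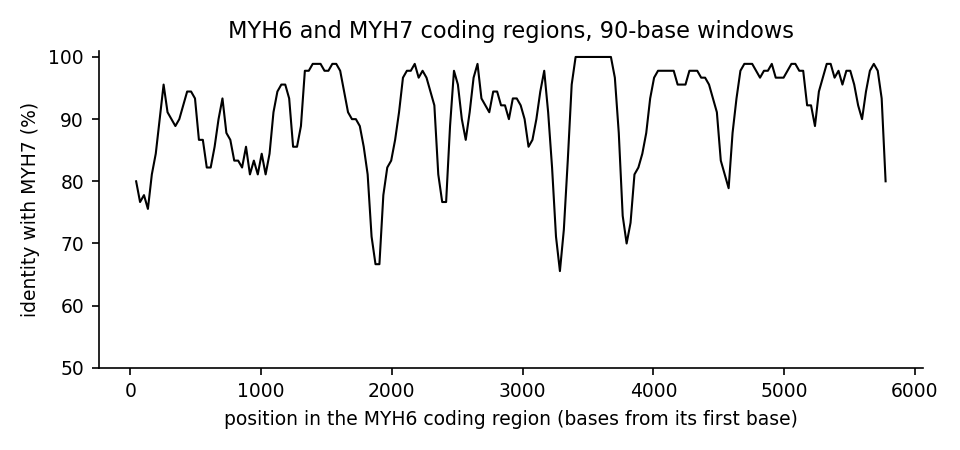
Identity of the MYH6 coding region with that of MYH7 (percent, y axis from 50) in 192 overlapping 90-base windows, against the position in bases from the first base of the MYH6 coding region. The identity runs from 65.6% to 100%, with a median of 93.3%, with a flat segment at 100% and sharp dips on either side of it.

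The isoform table held 10 transcripts of the members, a single transcript each for MYH6, MYH7, MYH7B and MYH9 and 3 each for MYH10 and MYH14. The transcripts of MYH10 were spread unevenly over the libraries. NM_001256095 had 24.9 and 15.5 FPKM in the ECsXAV libraries against 13.7 and 11.3 FPKM in the CPC libraries. NM_005964 had 5.07 and 10.8 FPKM in the ECsXAV libraries against 12.6 and 12.9 FPKM in the CPC libraries. NM_001256012 had 5.09 and 6.83 FPKM in the ECsXAV libraries against 3.65 and 4.85 FPKM in the CPC libraries. Of the MYH10 total, NM_005964 made up 14.5% and 32.6% in the ECsXAV libraries and 42.1% and 44.4% in the CPC libraries, so that the ECsXAV replicates were further from each other than ECsXAV replicate 2 was from either CPC library.

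With limma on the 16504 transcripts whose mean reached 1 FPKM, of which 0.0727% met the criterion, the log2 fold change was 0.70 for NM_005964 (95% confidence interval -0.32 to 1.73, adjusted p = 0.522 from limma), -0.62 for NM_001256095 (adjusted p = 0.467) and -0.40 for NM_001256012 (adjusted p = 0.546). Of the 7 member transcripts tested, 0 met the criterion in this wider fit and 2, those of MYH6 and MYH7, had an unadjusted p under 0.05, with an adjusted p of 0.119 and 0.0776 from limma. For MYH14, NM_024729 carried 98.2% to 98.7% of the gene in every library.

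**Figure D4:**
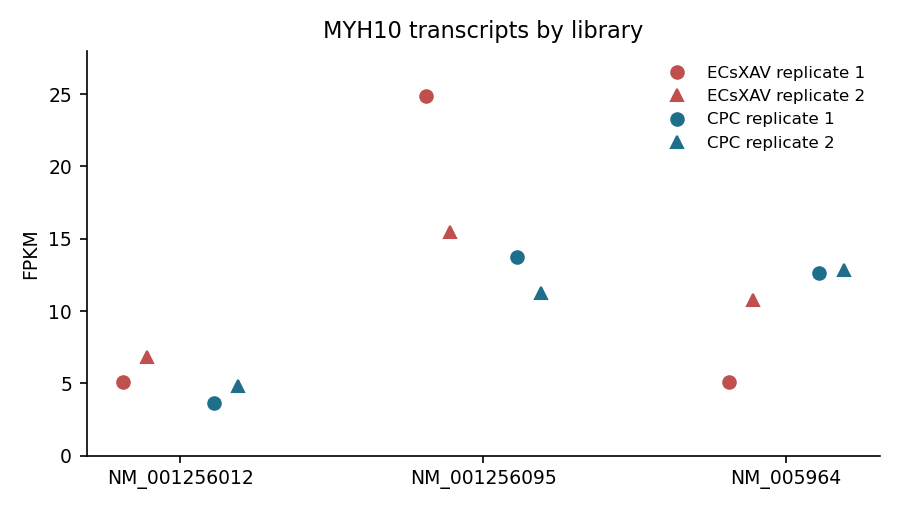
FPKM of the 3 MYH10 transcripts in ECsXAV (red) and CPC (blue) cultures, with replicate 1 as circles and replicate 2 as triangles. ECsXAV replicate 1 stands at 24.9 FPKM for NM_001256095 and at 5.07 FPKM for NM_005964, and ECsXAV replicate 2 lies between it and the CPC libraries for both.

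The hosted microRNA genes were barely read in these poly-A libraries. MIR208A was listed at 0 and 93.2 FPKM in the ECsXAV libraries and at 108 and 0 FPKM in the CPC libraries, values in the ratio of 1 read to 2 at the relative depths of these libraries (within 3%). MIR208B was listed at 41.3 FPKM in CPC replicate 1 and at 0 in the other libraries, and MIR499A was listed at 0 in all 4. A read in these short genes weighs heavily in FPKM, and the level of the mature microRNAs was not measured.

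The cardiomyocyte markers TNNT2, ACTN2, TNNC1, MYL4, MYL7, NKX2-5, RYR2 and ACTC1 summed to 15777 to 16661 FPKM in the ECsXAV pair and 13713 to 14731 FPKM in the CPC libraries, and with limma 0 of these 8 met the criterion or had an unadjusted p under 0.05. Per 100 FPKM of the mean of TNNT2, ACTN2, TNNC1 and MYL4, MYH6 had 51.8 and 57.5 FPKM in the ECsXAV pair and 148 and 124 FPKM in the CPC libraries, and MYH7 had 61.3 and 62.5 FPKM against 10.5 and 12.6 FPKM. On this scale the groups stayed apart for MYH6 and MYH7 and overlapped for MYH7B, MYH10 and MYH14. MYH9 had 2.53 and 3.06 FPKM in the ECsXAV pair against 2.47 and 2.36 FPKM in the CPC libraries. Its groups were apart by less than its ECsXAV replicates differed. The sum of MYH6 and MYH7 was 113 and 120 FPKM on this scale in the ECsXAV pair against 159 and 136 FPKM in the CPC libraries, with the groups apart. Per 100 FPKM of TNNT2 alone this sum was 76.1 and 77.4 FPKM against 82.2 and 70.1 FPKM, and the groups overlapped.

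Marker sums of the other cell types, fast skeletal muscle excepted, were also lower in both CPC libraries than in both ECsXAV libraries. The 7 smooth muscle markers summed to 323 to 356 FPKM in ECsXAV and 209 to 225 FPKM in CPC replicates, with 1 (TAGLN) past the criterion. TAGLN had 116 and 108 FPKM in the ECsXAV libraries against 15.8 and 22.6 FPKM in the CPC libraries, and the median log2 fold change of the tested markers was -0.18. MYH11, their defining heavy chain, was below 1 FPKM in every library and went the other way. It had 0.084 and 0.15 FPKM in the ECsXAV libraries against 0.35 and 0.43 FPKM in the CPC libraries. The 9 fibroblast and mesenchyme markers summed to 192 to 227 and 105 to 107 FPKM, with 3 past the criterion (COL1A1, COL3A1 and LUM). The 7 endoderm and epithelium markers summed to 215 to 317 and 132 to 149 FPKM, with 1 (AFP) past the criterion and ALB and FOXA2 below 1 FPKM. The 8 markers of dividing cells summed to 60.5 to 72.7 and 23.2 to 25.3 FPKM, with 7 past the criterion. All calls of these 4 lists were higher in ECsXAV cultures, beside 1.44% of all tested genes called in that direction and 0.710% in the other. Both CPC libraries were below both ECsXAV libraries for 25.4% of all tested genes. Of 8 endothelial markers, 6 (PECAM1, TEK, VWF, ERG, TIE1 and CLDN5) were below 1 FPKM in all libraries, and the list summed to 16.9 to 20.4 and 13.8 to 14.5 FPKM. The 8 fast skeletal muscle markers overlapped in their sum between the groups, 1 of them (ACTN3) was past the criterion and higher in CPC cultures, and MYOD1, MYOG, MYF5 and MYF6 were below 1 FPKM. The part of these cells in the levels of MYH9, MYH10 and the other members was not tested.

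Related genes were read from 4 lists. In the list of nonmuscle myosin II light chains and regulators, 26 of 28 genes were tested, 0 met the criterion in the direction of CPC and 1 in that of ECsXAV, with a median log2 fold change of -0.082 beside -0.0045 over all tested genes. ANLN, the anillin scaffold of the cleavage furrow, had 9.20 and 6.78 FPKM in the ECsXAV libraries against 2.86 and 2.40 FPKM in the CPC libraries (log2 fold change -1.30, adjusted p = 0.0413 from limma). MYL6, the essential light chain shared by nonmuscle and smooth muscle myosin II, was the highest expressed at 467 to 548 FPKM, with a difference of 0.17 on the log2 scale (adjusted p = 0.561 from limma). The regulatory light chains MYL12A and MYL12B, named after their values were seen, had 71.6 and 70.3 against 52.4 and 55.7 FPKM and 66.2 and 65.7 against 47.6 and 54.6 FPKM, with an adjusted p of 0.149 and 0.204 from limma. MYL9, a more abundant regulatory light chain of the list, had 486 and 409 against 339 and 417 FPKM. Its groups overlapped (adjusted p = 0.526 from limma). The highest log2 fold change of the list, 2.24 for the septin SEPT7, came from a listing at 0 in ECsXAV replicate 1 beside 21.3 to 26.7 FPKM in the other libraries, and was -0.16 without that library. In this list 6 of 26 genes, all lower in CPC cultures, had an unadjusted p under 0.05, beside 18.2% of all tested genes. ANLN lost its call whichever of the 4 libraries was left out, with an adjusted p from 0.0831 to 0.146 from limma.

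In the list of myosin folding and thick filament partners, 14 of 18 genes were tested and 1 met the criterion, in the direction of ECsXAV, and the median was -0.060. MYBPC3, the cardiac myosin-binding protein C that lies along the thick filament, had 401 and 381 FPKM in the ECsXAV libraries against 198 and 181 FPKM in the CPC libraries (log2 fold change -1.04, standard error 0.13, adjusted p = 0.0327 from limma). This call was lost whichever of the 4 libraries was left out (adjusted p from 0.0890 to 0.228 from limma) and with quantile normalization (adjusted p = 0.0621). The myosin chaperone HSP90AB1 was the highest expressed at 318 to 345 FPKM, with a log2 fold change of 0.073. UNC45B, the muscle-specific chaperone of the myosin head, and SMYD1, a methyltransferase of sarcomere assembly, were named after their values were seen, at 72.0 to 79.9 and 281 to 300.5 FPKM, with 95% confidence intervals of -0.35 to 0.23 and -0.37 to 0.23. MYOM2, a myomesin of the M-band also named after its values were seen, had 1.02 and 1.37 FPKM in the ECsXAV pair and 7.34 and 4.16 FPKM in the CPC libraries, and missed the criterion at an adjusted p of 0.0584 from limma.

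In the list of regulators of MYH6 and MYH7 transcription, 24 of 28 genes were tested, and with limma 0 met the criterion and 6 had an unadjusted p under 0.05, 3 in each direction, beside the same 18.2% of all tested genes. The median was 0.013, with log2 fold changes between -0.47 and 0.58. The 2 lowest unadjusted p belonged to SRF, the factor that binds CArG boxes, and to TEAD1, which binds the GGAATG core. SRF had 16.5 and 18.9 FPKM in the ECsXAV pair and 26.4 and 27.5 FPKM in the CPC libraries (log2 fold change 0.58, adjusted p = 0.0837 from limma). TEAD1 had 27.3 and 26.6 FPKM against 20.4 and 18.2 FPKM (log2 fold change -0.46, adjusted p = 0.121 from limma). NKX2-5, a homeodomain factor of cardiac progenitors and cardiomyocytes, was the highest expressed of the list at 118 to 182 FPKM, and its groups overlapped.

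In the list of striated muscle thin filament and light chain genes, all 11 genes were tested and 1 met the criterion, in the direction of ECsXAV, and the median was -0.32. MYL2, the regulatory light chain characteristic of ventricular muscle, had 53.9 and 45.1 FPKM in the ECsXAV libraries against 7.04 and 9.92 FPKM in the CPC libraries (log2 fold change -2.42, standard error 0.19, adjusted p = 0.0139 from limma). Its call was lost without CPC replicate 1 or CPC replicate 2 (adjusted p = 0.0700 and 0.0544 from limma). MYL7, the atrial regulatory light chain, was the highest expressed at 8786 and 8535 FPKM in the ECsXAV pair and 6701 and 7142 FPKM in the CPC libraries, with a difference of -0.32 on the log2 scale (adjusted p = 0.491 from limma). The adult cardiac troponin TNNI3, named after its values were seen, had 61.0 and 79.0 FPKM against 27.6 and 38.7 FPKM and missed the criterion at an adjusted p of 0.0856 from limma, while TNNI1, the slow skeletal and fetal troponin, had 278 to 332 FPKM with overlapping groups. The 4 lists together held 3 genes past the criterion, all in the direction of ECsXAV. Among all tested genes 2.15% were past it, and of these 266 genes 178 lay in that direction and 88 in the other. Whether the lists depart from this general lean was not tested.

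**Figure D5:**
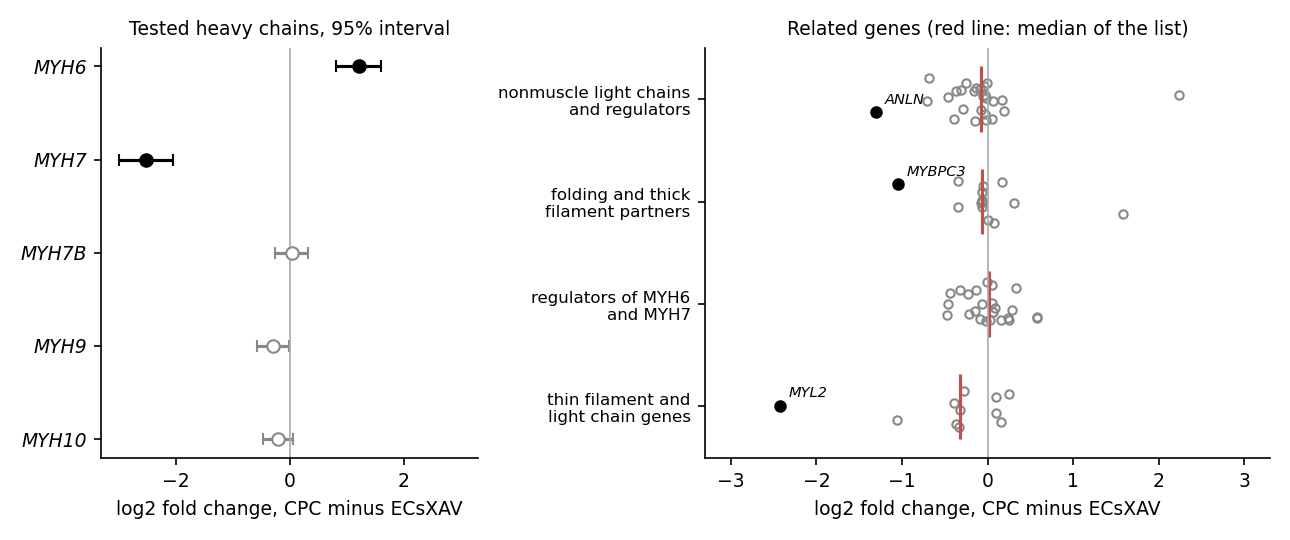
Left, log2 fold change (CPC minus ECsXAV, on log2(FPKM + 1)) of the 5 tested heavy chains with 95% confidence intervals. Right, the same for the tested genes of the 4 lists with a red line at each median, filled points meeting the criterion. MYH7 at -2.52 and MYL2 at -2.42 lie furthest to the left, and the isolated point at 2.24 is SEPT7, which is listed at 0 in a single library.

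The genes with the pattern most like a member were taken as those with the smallest root mean square difference of centred log2(FPKM + 1) over the 4 libraries, among 5323 genes with a mean of at least 10 FPKM. These likenesses rest on 4 points that share their libraries and groups. Nearest to MYH7 was TAGLN, a smooth muscle actin-binding protein, with 116 and 108 FPKM in the ECsXAV libraries against 15.8 and 22.6 FPKM in the CPC libraries, at a difference of 0.032. MYL2 followed at 0.067. Nearest to MYH6 was CCDC80, a secreted matrix protein, with 9.15 and 8.73 FPKM in the ECsXAV libraries against 21.1 and 20.1 FPKM in the CPC libraries, at a difference of 0.055. PBX3, a homeodomain factor, and PEG10, an imprinted gene of retrotransposon origin, followed at 0.068 and 0.080.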

How the data were processed

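The authors deposited gene and isoform tables of FPKM, computed with Cufflinks and UCSC annotation on hg19 from poly-A libraries of unsorted cells. The submitters' notes list TopHat 1.3.3, while the methods name Gsnap. For these FPKM, scaling between libraries, strand and the treatment of reads with several alignments are not given in the sources used here. The methods state strand-specific counting without multiply aligned reads for separate read counts, which were not used here. FPKM are not counts, so no count model was used, and relative depth was read from whole-read steps of low values.

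Groups came from the sample labels. The groups were compared with limma 3.58.1 (R 4.3.3) on log2(FPKM + 1), which understates changes of low genes. Prior variances followed a trend with the mean level, and p-values were adjusted by Benjamini-Hochberg over all genes whose mean reached 1 FPKM. Each p rests on variance shared across genes. In data simulated with normal noise for 11980 genes, short RNA genes left out, 86% of 200 genes changed by a log2 value of 2 were recovered. The changed genes were drawn from those with a mean log2(FPKM + 1) above 2. The main comparison kept short RNA genes, and recovery in that setting was not simulated. Single values were tested with exact permutation tests. Gene models came from GENCODE 44 on GRCh37, and sequences were aligned with Biopython 1.88.

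Members and lists were chosen with earlier results of these data known. All members were named, with every list gene past the criterion or otherwise the 2 with the lowest unadjusted p, the highest expressed gene of each list, and the 3 genes nearest in pattern to MYH6 and to MYH7, of which 1 is not reported here. Alternatives were a pseudocount of 0.1, other filters, quantile and median-of-ratios scaling, no trend, a replicate block, the isoform table, marker scaling and each library left out.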

Additional observations from a re-analysis of the deposited data

How the results depend on the processing

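Genes past the criterion numbered 266 and members 2. Without a filter on low FPKM there were 20 genes and 0 members (limma, 3 members and 17.7% of all tested genes with an unadjusted p under 0.05). MYH6 stayed at 1.21 and MYH7 at -2.52, while their standard errors rose from 0.15 to 0.28 and from 0.18 to 0.20. More genes were also tested. At a mean FPKM of at least 5 there were 152 genes. With 1 library left out the counts ran from 59 to 159 genes and from 0 to 1 members, a group then holding 1 library assumed to vary like the other. MYH6 ran from 1.15 to 1.27, MYH7 from -2.72 to -2.32, MYH9 from -0.36 to -0.23, MYH10 from -0.24 to -0.16 and the MYH7 share difference from -43.7 to -41.2 percentage points, all in their direction. MYH7B ran from -0.022 to 0.093, its sign turning to -0.022 without ECsXAV replicate 1 and to -0.011 without CPC replicate 1. Without short RNA genes, chosen after the data were seen, 339 genes and 2 members passed. Quantile and median-of-ratios scaling, no trend, a pseudocount of 0.1 and the isoform table kept both member calls. Divided by the mean of 4 cardiomyocyte markers, MYH9 was at -0.15 and MYH10 at -0.074. The causes were not tested. ANLN, MYBPC3 and MYL2 also lost their calls without the filter on low FPKM, and ANLN at a mean FPKM of at least 5. Values turned sign with quantile normalization (UNC45B 0.0041, SMYD1 0.12) or without 1 library, in ranges of -0.16 to 4.64 for SEPT7, -0.0098 to 0.20 for TNNI1, -0.13 to 0.0079 for UNC45B and -0.0073 to 0.50 for NKX2-5. SEPT7 gained a call without ECsXAV replicate 2, at 4.64. MYOM2 passed with a pseudocount of 0.1 and, like TNNI3, without short RNA genes. Depth limits what can be said of MYH14, under 1 FPKM, and of the microRNA genes, with few reads.

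The replicate numbers were tried as a replicate block, although nothing states that same-numbered cultures were paired. Across 12398 genes the differences of replicate 1 minus replicate 2 in the groups had a Spearman's rho of 0.356 and a Pearson's r of 0.035. With the block 176 genes and 1 member passed. MYH6, at 1.21, had an adjusted p of 0.0582 from limma, MYH7 one of 0.0339, and TNNI3, not called without the block, one of 0.0388. With the block and without short RNA genes, 345 genes and 2 members passed.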
